A study of Mus musculus with 12 samples.

Results

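The 4 genes described here encode the RUNX transcription factors Runx1, Runx2 and Runx3 and their shared partner Cbfb. Their members are the DNase I hypersensitive sites (DHSs) whose midpoint lies between 50 kb upstream and 50 kb downstream of each gene body, and there were 192 of them among 170207 DHSs of the series. The Runx1 window held 50, the Runx2 window 66, the Runx3 window 46 and the Cbfb window 30. DNase-seq finds places where chromatin is open enough for DNase I to cut. The 12 peak lists, each from 1 library of C57BL/6J mouse cells, were compared in 5 groups. LSK cells (3 libraries) are lineage-negative, SCA1+, KIT+ stem and progenitor cells sorted fresh from bone marrow. DN1 (2 libraries), DN2a (2) and DN2b (2) are early T cell precursors sorted after LSK cells were grown on immobilized Delta1, a Notch ligand, the DN1 cells without IL-7 and the DN2 cells with it. IgG (3 libraries) are LSK cells grown on immunoglobulin with no ligand. DN stages were collected from shared LSK isolates by the study's methods, and the labels do not say which libraries share one. Stage and IL-7 therefore cannot be told apart in DN2 against DN1, nor culture and absence of ligand in IgG against LSK. In Delta1-cultured against LSK and IgG libraries, ligand and sorted stage cannot be told apart, and the DN2 cells also had IL-7. In DN2 against LSK, culture, ligand, IL-7 and stage cannot be told apart.

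RUNX proteins bind DNA through the Runt domain, and Cbfb, which does not itself contact DNA, strengthens that binding. Runx1 is needed for the emergence of blood stem cells and for early T cell development, Runx3 is known for silencing Cd4 and for CD8 T cells, and Runx2 is the master regulator of bone formation. Each Runx gene has a distal promoter and, far into the gene, a proximal promoter, which give proteins with different first residues. Cbfb has 1 promoter.

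The distal promoters of the 3 Runx genes share a run of letters, which was noticed only on reading their sequences. In the RefSeq promoter windows (GRCm38.p6, read in the direction of transcription) the same 18 bases, in capitals, contain a pair of ACCACA matches, the reverse complement of the RUNX letters TGTGGT.
Runx1 distal, chr16:92826025-92826054, minus strand: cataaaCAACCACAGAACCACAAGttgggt
Runx2 distal, chr17:44814583-44814612, minus strand: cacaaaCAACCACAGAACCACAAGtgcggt
Runx3 distal, chr4:135120503-135120532, plus strand: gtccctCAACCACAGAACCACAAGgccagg
The element was taken as the longest run that these 3 windows share, so their own matches were fixed in advance. Of 32851 RefSeq promoter windows of 300 bases, 4 (0.0122%) held this element on either strand. The other one, besides the 3 Runx windows, is Gm16225, which lies on the opposite strand of the Runx3 window and holds the same copy. The count thus says only that no other of these windows held the element. At least 1 TGTGGT on either strand was found in 16.8% of those windows, and 2 or more in 1.81%. Of all 170207 DHSs, 2 held the element, and both were distal promoters, those of Runx1 and Runx3. The Runx2 distal DHS does not reach it.

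A few member sites that the results below turn on are shown as printed on the plus strand of GRCm38.p6, with any TGTGGT or ACCACA in capitals. The first was open only after Delta1 culture, the second only in DN2 cells, the next pair in LSK and Delta1-cultured cells but weakly or not at all in IgG cells, the one after only in IgG cells, and the last lies at the Runx1 enhancer known as +23.
Runx1, 77.6 kb downstream: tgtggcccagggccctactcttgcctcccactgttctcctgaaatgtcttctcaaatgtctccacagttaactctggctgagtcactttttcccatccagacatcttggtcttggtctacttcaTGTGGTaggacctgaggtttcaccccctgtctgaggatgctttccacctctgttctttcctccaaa
Runx3, 16.2 kb downstream: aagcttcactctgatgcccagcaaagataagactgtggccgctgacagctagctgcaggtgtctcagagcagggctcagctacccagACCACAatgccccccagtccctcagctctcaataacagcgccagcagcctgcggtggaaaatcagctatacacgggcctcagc
Runx3, at -40.6 kb: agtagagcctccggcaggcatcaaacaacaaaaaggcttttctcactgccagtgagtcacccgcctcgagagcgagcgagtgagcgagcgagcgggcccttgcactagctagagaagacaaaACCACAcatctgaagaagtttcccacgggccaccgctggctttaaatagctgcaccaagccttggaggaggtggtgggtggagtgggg
Runx2, 124 kb downstream: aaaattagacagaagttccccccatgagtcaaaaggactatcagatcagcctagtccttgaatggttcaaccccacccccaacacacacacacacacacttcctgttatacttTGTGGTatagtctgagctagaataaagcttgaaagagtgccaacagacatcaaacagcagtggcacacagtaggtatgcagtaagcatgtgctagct
Runx1, 213 kb downstream: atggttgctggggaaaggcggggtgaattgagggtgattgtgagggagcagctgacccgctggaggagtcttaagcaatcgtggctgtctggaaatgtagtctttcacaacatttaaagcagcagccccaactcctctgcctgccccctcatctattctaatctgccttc
Runx1, 24.4 kb downstream: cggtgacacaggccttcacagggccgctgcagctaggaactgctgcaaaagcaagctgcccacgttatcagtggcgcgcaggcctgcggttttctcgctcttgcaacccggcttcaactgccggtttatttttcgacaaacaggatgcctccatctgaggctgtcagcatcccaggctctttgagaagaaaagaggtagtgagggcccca
Distances here and below run from the first coding start site of the gene along its transcription. In windows of 150 bases at the DHS centre, TGTGGT was present on either strand in 56 of 192 members (29.2%) and in 23.1% of all DHSs. By the same count the E-box CAGNTG was in 44.8% of members and 38.7% of all DHSs, the ETS letters GGAAGT in 22.9% and 23.03%, and the GATA letters AGATAA in 6.25% and 8.25%. A match describes the letters of a window and not a bound site. The sites shown above are a selection, and other sites of the same kinds differed in these letters. Over their whole length, some sites open only in IgG cells held TGTGGT on either strand and others did not. The letters were absent from a DN2-only site of the Cbfb window and present in the Delta1-only sites of the Runx2 window.

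Each peak carries a whole-number score, which was ranked within its library and expressed as a percentile, with 0 for no peak. The lists differed in length by 3.39 times, from 32977 to 111657 peaks, and the 3 IgG lists were the shortest. Sequencing depth is unknown. With sorted or cultured bulk cells, fewer cells with an open site and a less open site in each cell cannot be told apart. A check of the cell types at promoters (peak midpoint within 1 kb of a start site) gave, of 10 T lineage markers, 1 to 2 open in LSK libraries, 4 in DN1, 7 in DN2a, 8 to 9 in DN2b and 0 for IgG. Of 8 myeloid markers, 4 to 5 were open in IgG libraries and 0 to 2 in every other library, although Mpo, Elane and Csf1r were each open in 1 IgG library only. Of 4 mast and basophil markers, 1 was open in LSK libraries, 2 in every Delta1-cultured library and 0 to 1 in IgG libraries. Cpa3 ranked from 30.2 to 52.7 in LSK libraries, from 54.3 to 85.0 in Delta1-cultured ones and at 0 in IgG, Mcpt8 had a peak in each of the 6 Delta1-cultured libraries and in 1 IgG library, and Fcer1a and Ms4a2 were at 0 throughout. Of 8 stem and progenitor markers 4 to 5 were open in LSK, 3 to 5 in Delta1-cultured and 2 to 3 in IgG. Of 5 erythroid and megakaryocyte markers 3 were open in LSK, 1 to 4 in Delta1-cultured and 0 to 1 in IgG libraries, and of 5 B lineage markers 2, 2 and 1 to 2. The part of these differences in the results below was not tested.

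Across the 5 groups, 40 of the 132 member DHSs found in at least 2 libraries passed an exact permutation test of the percentiles (adjusted over all DHSs tested), against a background of 22.3%. Those 40 comprised 14 at Runx1, 14 at Runx2, 9 at Runx3 and 3 at Cbfb. The count moved with the libraries kept: it was 7, 9 and 11 without IgG replicate 1, 2 and 3 (replicates are numbered as deposited, with no pairing between groups), 16 without DN1 replicate 1, 23 without DN1 replicate 2 or either DN2a replicate, and 22 without DN2b replicate 2, and between 28 and 32 without an LSK library or DN2b replicate 1. It was 26 with only peaks at or above each list's median score, 21 with DHSs of a single library kept, and 69 by limma's moderated F test on the same percentiles, which called 50394 of all 114527 DHSs tested. The background moved with it, to between 4.06% and 4.89% without an IgG library and between 10.8% and 20.3% without the other libraries just named. It was 25.5% with the score cut and 8.39% with single-library DHSs. With each list cut to the same number of top-scoring peaks (equal list lengths) 27 of 89 members passed, at a background of 30.5%. A site open in every library of 1 group of 3 and nowhere else cannot score below an exact p of 0.00909 by presence alone, and in DN1 alone 0.0455, which is above the largest unadjusted p that passed (0.0111), so the test cannot call presence in DN1 alone. The 40 include all members open in every library of 1 kind of sample and no other (5 for IgG, 3 for DN2, 3 for Delta1-cultured and 2 for LSK), which entered the test only through the libraries that hold them. Sites with a peak in at most 1 library outside the groups where they were high entered the test in the same way. Values of both kinds are given below as descriptions, with no p where the test was passed.

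Peaks in all 12 libraries marked 18 members, or 7 at Runx1, 3 at Runx2, 5 at Runx3 and 3 at Cbfb, against 7.68% of all DHSs. Members open in every library of 1 group or stage and in no other were few. There were 3 for the Delta1-cultured libraries (background 1.9%), 5 for IgG (1.89%), 3 for DN2 (0.758%) and 2 for LSK (0.649%). None was open in all LSK and IgG libraries alone (0.0987%) or in all LSK and DN1 libraries alone (0.403%). A further 8 were open in every LSK, DN1, DN2a and DN2b library and in no IgG library (3.17%). Of the 5 IgG sites, 4 were in the Runx1 window. Of the 3 DN2 sites, 2 were in the Runx3 window and 1 in the Cbfb window. At equal list lengths, of 112 members, 15 were open in all 12 libraries (background 14.2%), 3 in all Delta1-cultured libraries alone (1.86%), 5 in IgG alone (6.23%), 3 in DN2 alone (1.99%), 1 in LSK alone (1.85%) and 3 in every library but those of IgG (1.95%).

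**Figure D1:**
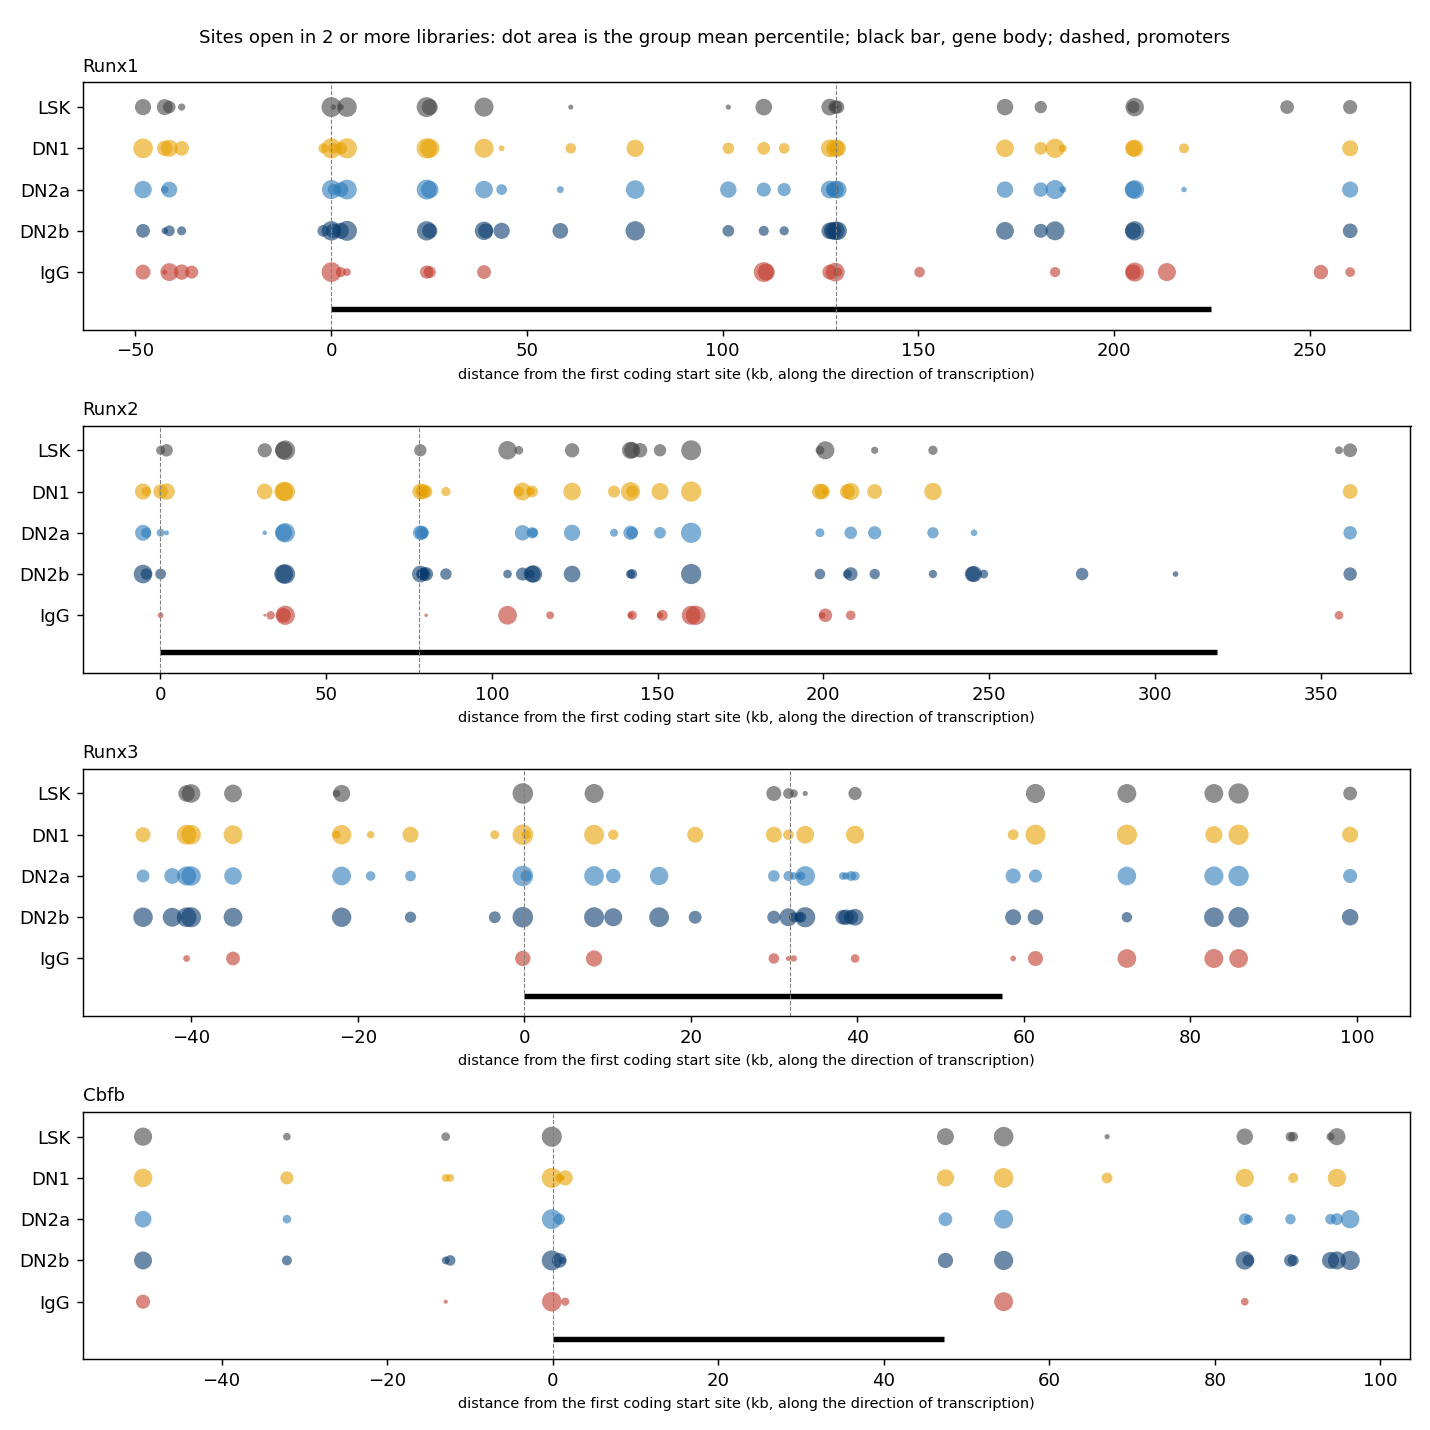
Positions of the member sites found in 2 or more libraries, by gene (rows of panels) and group (rows of dots), in kb from the first coding start site. Dot area is the group mean of the score percentile (0 to 100), the black bar is the gene body and dashed lines mark the promoters. A dot column filled only in the IgG row appears at 213 kb in Runx1, and one filled only in the DN2 rows at 16.2 kb in Runx3.

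Runx1 (chr16:92601466-92826149, minus strand) had an open distal promoter in every library and a proximal promoter that was lower in LSK cells than in all cultured cells. The distal DHS (chr16:92825977-92826206) ranked from 83.4 to 96.0 across the 12 libraries. The 4 DN2 libraries, at most 91.7, lay just below all LSK and DN1 libraries and overlapped IgG, and the test across groups was not passed (exact adjusted p = 0.218). With equal list lengths DN2 ranked from 70.9 to 79.9, below all LSK, DN1 and IgG libraries, which ranked from 86.4 to 92.9. At the proximal promoter the highest peak within 1 kb of the start site ranked at 43.7, 44.6 and 46.5 for LSK, 75.8 and 74.6 for DN1, 75.4 and 79.2 for DN2a, 76.0 and 85.0 for DN2b, and 87.1, 78.1 and 83.9 for IgG. All 3 LSK libraries lay below every other library, and ligand and no-ligand cultures overlapped. The leading DHS there (chr16:92697297-92697506) passed the exact test with an adjusted p of 0.0438 (group share of variance 0.903). With equal list lengths the mean percentile of the same window was 5.46 for LSK, 37.8 for DN1, 56.2 for DN2a, 52.2 for DN2b and 81.7 for IgG, and the leading DHS ranked higher in every IgG library (78.1 to 85.3) than in any Delta1-cultured library (15.8 to 63.6). Whether ligand and no-ligand cultures overlapped there thus depended on list length. A promoter window of 2.5 kb, in place of 1 kb, raised the LSK mean more than the DN1 mean, so that the gap between them was smaller (values in the closing section).

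**Figure D2:**
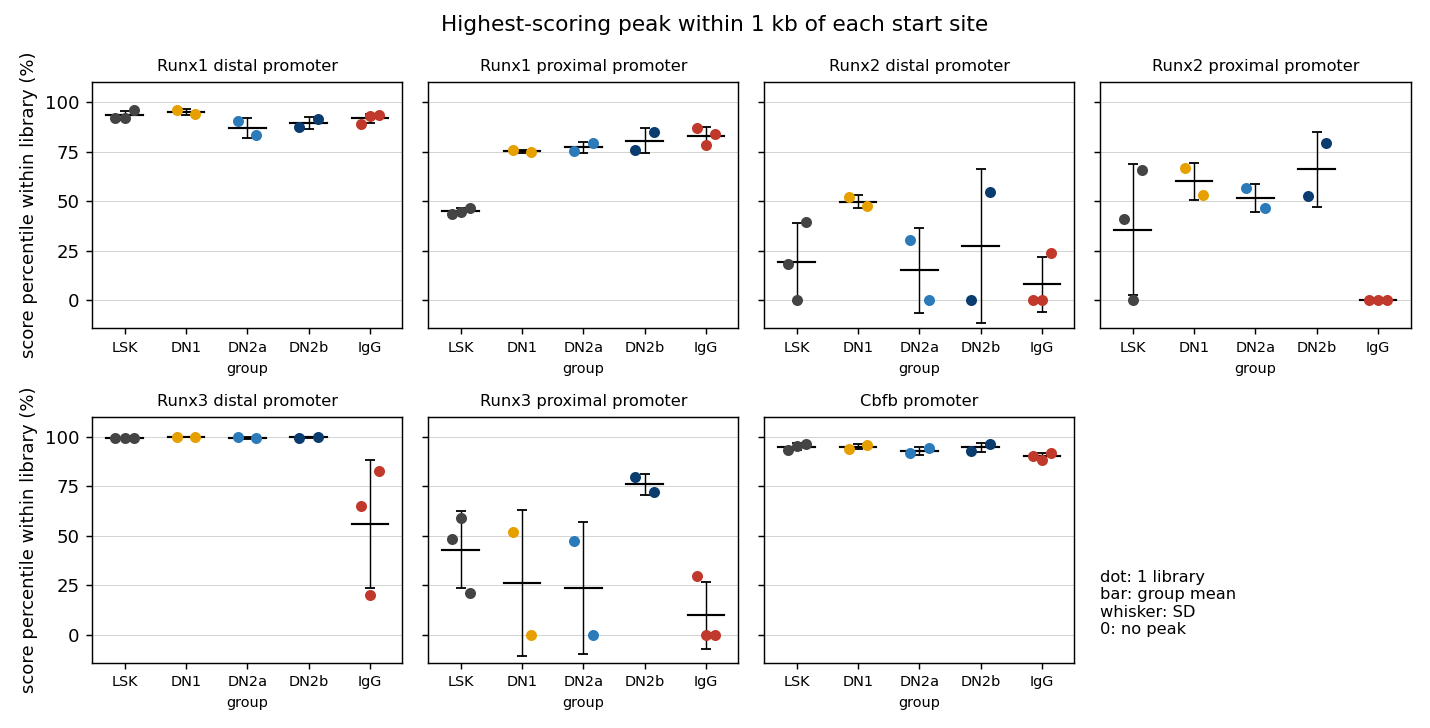
Score percentile of the highest peak within 1 kb of each promoter's start site, by group (x axis). Dots are libraries, horizontal bars group means and whiskers SD, with 0 for no peak. LSK libraries sit between 43.7 and 46.5 at the Runx1 proximal promoter, and IgG libraries between 20.03 and 82.5 at the Runx3 distal promoter, where all others are above 99.

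Inside Runx1, intronic sites separated the ligand cultures from the rest. The site 77.6 kb downstream of the distal start (chr16:92748417-92748606), whose sequence with 1 TGTGGT is shown above, was absent from all LSK and IgG libraries. It ranked at 80.4 and 60.2 for DN1, 84.5 and 78.5 for DN2a, and 86.4 and 90.4 for DN2b. All 6 Delta1-cultured libraries held it. In equal-length lists it stayed in those 6 alone, at 42.5 and 16.2 for DN1 and from 62.3 to 74.7 for DN2. The site at 185 kb (chr16:92641137-92641386) was absent in LSK, weak in IgG at 17.9, 20.03 and 35.0, and high in the Delta1-cultured libraries, from 81.7 to 90.5 (exact adjusted p = 0.00595). Its 3 levels did not overlap.

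Other Runx1 sites were high in LSK and Delta1-cultured cells and lower in IgG cells. The site at 4.02 kb (chr16:92821917-92822346), just inside the distal promoter, ranked at 85.9, 88.9 and 96.4 for LSK, from 91.0 to 96.4 in the Delta1-cultured libraries, and at 0, 0 and 42.4 for IgG. The IgG libraries lay below all others, but the test across the 5 groups was not passed (exact adjusted p = 0.0505). The +23 enhancer site (chr16:92801677-92801886), known to be active in blood stem cells, ranked at 88.4, 96.8 and 96.1 for LSK, from 85.9 to 96.8 in the Delta1-cultured libraries, and at 54.0, 0 and 69.3 for IgG (exact adjusted p = 0.11). IgG libraries were again lowest, and varied most.

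Conversely, the site at 213 kb (chr16:92612617-92612786, intronic) was found in IgG alone, at 74.3, 79.1 and 77.2. A few further sites of the window, picked out here after their values were seen, had peaks in all 3 IgG libraries and no other, at 253 kb, 111 kb and -35.6 kb, with IgG means of 49.4, 68.8 and 39.9. The site at 244 kb, also picked out after its values were seen, was found in LSK alone, at 46.2, 42.2 and 44.3, but in equal-length lists at 12.1, 4.35 and 0. In IgG against LSK, 9 of 35 Runx1 sites did not overlap and were higher in IgG (background 7.27%), and 8 were lower (background 30%). In equal-length lists 9 of 27 were higher (background 14.6%) and 4 lower (19%).

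Runx3 (chr4:135120652-135177990, plus strand) had the highest-ranking promoter of the family in LSK and T-lineage cells. The distal DHS (chr4:135120337-135120566), which holds the shared element, ranked at 99.6, 99.3 and 99.5 for LSK, 99.8 and 99.8 for DN1, 99.9 and 99.3 for DN2a, and 99.6 and 99.98 for DN2b. In IgG it ranked at 65.3, 20.03 and 82.5. All 3 IgG libraries lay below every other library, but the IgG spread was wide and the exact test across groups was not passed (adjusted p = 0.112). The proximal promoter ranked at 48.6, 58.9 and 21.3 for LSK, 52.2 and 0 for DN1, 47.4 and 0 for DN2a, 79.7 and 72.3 for DN2b, and 29.5, 0 and 0 for IgG. Both DN2b libraries were above all others, and the leading DHS there (chr4:135152177-135152546) was not called (exact adjusted p = 0.249). In equal-length lists that DHS ranked at 62.1 and 6.14 for DN2b and at 32.0 in 1 LSK library, so DN2b was no longer apart. A promoter window of 2.5 kb, in place of 1 kb, takes in the neighbouring site at 33.7 kb described below and gave means of 62.0 for LSK, 74.1 for DN1, 91.1 for DN2a, 95.3 for DN2b and 36.0 for IgG, so that DN1 and DN2a went from below LSK to above it.

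Sites that were open in ligand cultures lay within the Runx3 gene and upstream. The intronic site at 16.2 kb (chr4:135136737-135136906) was open in DN2 cells alone, at 81.3 and 78.5 for DN2a and 90.3 and 94.6 for DN2b. The site at 33.7 kb (chr4:135154217-135154526), just past the proximal start, ranked at 69.7 and 78.6 for DN1, 90.8 and 91.5 for DN2a and 95.4 and 95.2 for DN2b. It was at 0, 19.3 and 0 for LSK and absent from IgG. All 6 Delta1-cultured libraries were above all LSK and IgG libraries. This also held with equal list lengths, although DN1 then ranked at 11.4 and 54.8. DN1 was below DN2a and DN2a below DN2b as deposited, but with equal list lengths DN2a (80.8 and 85.1) and DN2b (91.5 and 83.8) overlapped.

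Upstream of Runx3, neighbouring sites at -40.6 and -40.1 kb were open in every LSK, DN1, DN2a and DN2b library. The site at -40.1 kb (chr4:135080477-135080726) ranked at 74.5, 88.4 and 81.6 for LSK, from 88.2 to 96.7 in the Delta1-cultured libraries, and was absent from IgG. The site at -40.6 kb (chr4:135079957-135080166), whose sequence is shown above, ranked at 65.0, 49.3 and 78.6 for LSK. It ranked from 82.6 to 93.3 in the Delta1-cultured libraries, and at 0, 0 and 32.2 for IgG. At equal list lengths the -40.1 kb site ranked from 58.2 to 80.8 for LSK and stayed apart from IgG, whereas at -40.6 kb the lowest LSK library (16.0) fell below the highest IgG library (22.8). The site at 85.8 kb (chr4:135206337-135206526), beyond the gene, was open throughout, from 75.1 to 99.6, lowest in the IgG libraries (exact adjusted p = 0.114).

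In DN2 against LSK, 8 of 42 Runx3 sites did not overlap and were higher in DN2 (background 10.2%), and none was lower (background 5.76%). By the same count 7 of 40 Runx1 sites were higher and 3 lower, so the share higher was similar there. Of 50 Runx2 sites 3 were higher and 6 lower, and of 23 Cbfb sites 2 were higher and none lower. In IgG against LSK, none of 22 Runx3 sites was higher (background 7.27%) and 9 were lower (background 30%). At equal list lengths 6 of 28 Runx3 sites were higher and 1 lower in DN2 than LSK (backgrounds 13.2% and 15.9%), and of 19 none was higher and 5 were lower in IgG than LSK (14.6% and 19%).

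**Figure D3:**
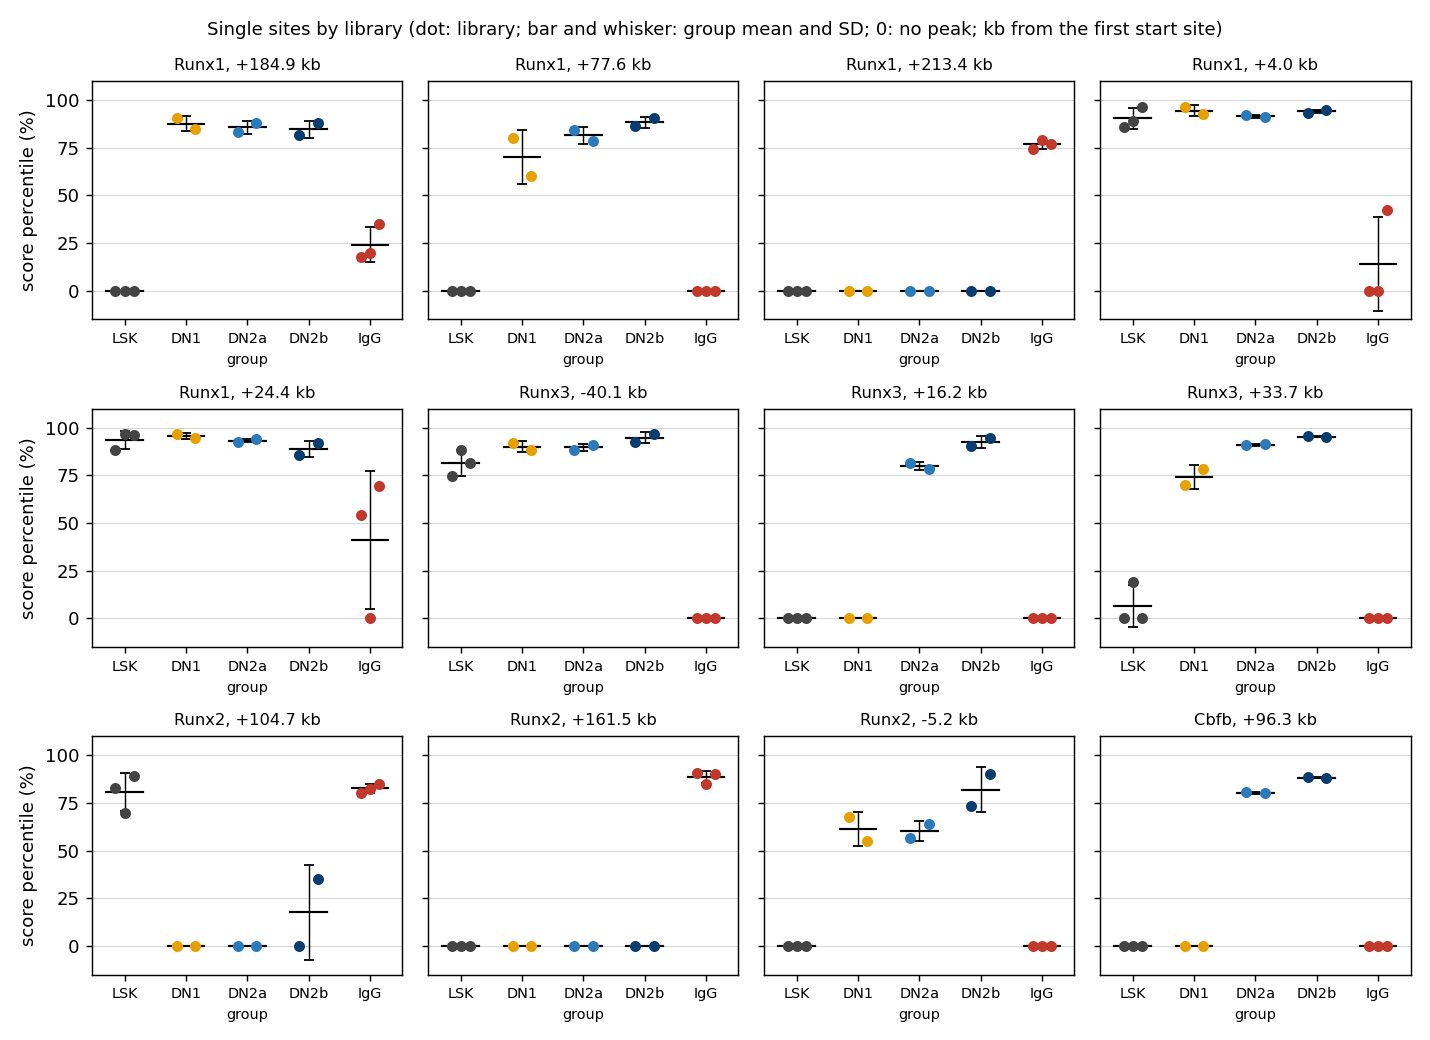
Score percentile of 12 single sites in each library, by group (x axis). Titles give the gene and the distance in kb from its first coding start site. Dots are libraries, bars means, whiskers SD and 0 means no peak. The Runx1 panel at 77.6 kb has all 6 Delta1-cultured libraries between 60.2 and 90.4 and the rest at 0, and that at 213 kb has the 3 IgG libraries between 74.3 and 79.1 and the rest at 0.

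Runx2 (chr17:44495987-44814797, minus strand), the regulator of bone formation, had promoters that were missing from some libraries. The distal promoter was found in 7 of 12 libraries, at 18.2, 0 and 39.6 for LSK, 52.2 and 47.4 for DN1, 30.3 and 0 for DN2a, 0 and 54.7 for DN2b, and 0, 0 and 24.0 for IgG. Its groups overlapped (exact adjusted p = 0.427), and in equal-length lists its DHS had a peak in 1 IgG library only. The proximal promoter was found in 8 libraries and in none of IgG, at 41.2, 0 and 65.6 for LSK and from 46.5 to 79.6 in the Delta1-cultured libraries. One LSK library was at 0 like those of IgG (exact adjusted p = 0.107). With equal list lengths the means were 12.9 for LSK, 2.10 for DN1, 7.97 for DN2a, 21.1 for DN2b and 0 for IgG. The LSK mean thus went from below those of DN1 and DN2a to above them.

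The site with the highest median outside the Runx2 promoters, at 160 kb (chr17:44654577-44654786), was open in all 12 libraries and ranked from 90.6 to 96.1 for LSK, from 94.5 to 98.0 in the Delta1-cultured libraries, and at 83.0, 84.0 and 86.3 for IgG (exact adjusted p = 0.0404). IgG was lowest by a small margin. Close by, the site at 161 kb (chr17:44653237-44653406, intronic) was found in IgG alone, at 90.5, 84.7 and 90.2. The IgG libraries were thus lowest at one of these neighbours and alone at the other.

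The site at 105 kb (chr17:44709977-44710186) was shared by LSK, at 83.0, 70.0 and 89.3, and IgG, at 80.5, 82.5 and 85.2. It was absent from DN1 and DN2a and ranked at 0 and 35.4 for DN2b. The 6 libraries of LSK and IgG were above all 6 Delta1-cultured libraries. The site at -5.24 kb (chr17:44819937-44820146), inside an intron of Supt3, which overlaps the Runx2 start on the other strand, was found in the Delta1-cultured libraries alone. It ranked at 67.7 and 55.2 for DN1, 56.5 and 63.9 for DN2a, and 73.6 and 90.4 for DN2b. In equal-length lists it stayed in those 6 libraries alone, from 5.55 to 67.4. The site at 124 kb (chr17:44690497-44690706) ranked from 33.1 to 64.3 for LSK and from 57.5 to 79.8 in the Delta1-cultured libraries and was absent from IgG. LSK ranked at 0, 12.3 and 32.4 once list lengths were equal and overlapped IgG.

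A site at 142 kb in Runx2 (chr17:44672857-44673106) was highest in DN1, at 93.5 and 77.8, and ranked at 71.3, 75.1 and 58.1 for LSK, 49.3 and 46.5 for DN2a, 0 and 38.4 for DN2b, and 23.7, 0 and 0 for IgG (exact adjusted p = 0.0258). Both DN1 libraries were above every other library as deposited, but with equal list lengths they ranked at 81.0 and 53.2, and 1 LSK library at 58.8 lay between them. In DN2 against DN1, 10 of 56 Runx2 sites were lower without overlap and none was higher (backgrounds 12% and 3.61%), and of 42 Runx3 sites 4 were higher and 2 lower. In equal-length lists 5 of 21 Runx2 sites were lower and 2 higher (backgrounds 16.1% and 11.4%), and of 27 Runx3 sites 5 were higher and 3 lower.

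Cbfb (chr8:105170674-105217989, plus strand) had an open promoter in all 12 libraries. The DHS (chr8:105170457-105170686) ranked at 93.3, 95.4 and 96.6 for LSK, from 91.6 to 96.4 in the Delta1-cultured libraries and at 90.5, 88.5 and 91.7 for IgG (exact adjusted p = 0.141). IgG lay below LSK without overlap but overlapped DN2a. With equal list lengths IgG (88.5 to 90.6) overlapped LSK (89.0 to 93.6) as well. Just past the start, the site at 1.52 kb (chr8:105172097-105172286) was at 52.2 and 56.9 for DN1, 46.9 in 1 IgG library and 0 elsewhere (exact adjusted p = 0.142). In equal-length lists DN1 was at 0 and 9.19, below the IgG library at 39.5. At 47.5 kb (chr8:105218017-105218226), next to the 3' end of the gene, a site ranked from 58.9 to 73.6 for LSK. It ranked from 27.8 to 78.5 in the Delta1-cultured libraries and was absent from IgG. Once list lengths were equal, 1 DN2a and 1 DN2b library were at 0 as well. The site at 96.3 kb (chr8:105266917-105267106), which overlaps the first coding exon of Fbxl8, was found in DN2 alone, at 80.7 and 80.0 for DN2a and 88.5 and 88.2 for DN2b. Of the 30 Cbfb window sites, 9 lay at promoters of other genes and 7 within other genes.

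The number of peaks per window did not separate the groups as deposited. It passed the exact test in none of the 4 windows (adjusted p = 0.358 for Runx1, 0.144 for Runx2, 0.106 for Runx3 and 0.222 for Cbfb), beside a background of 11.6% of protein-coding gene windows. Without DN2b replicate 1 the adjusted p was 0.0342 for Runx2 and 0.0364 for Runx3. With every list cut to the 32952 highest-scoring peaks, the Runx3 window held 14, 12 and 12 peaks in LSK, 12 and 16 in DN1, 17 and 17 in DN2a, 19 and 21 in DN2b, and 11, 9 and 12 in IgG. This passed (exact adjusted p = 0.0328, background 13.6%), and the DN2 libraries were above all others. The other 3 windows were not called at equal lengths, with adjusted p from 0.145 to 0.611 (exact test). Before the cut the DN2 libraries, from 17 to 35 peaks in the Runx3 window, overlapped DN1, at 23 and 19. Both were above the LSK and IgG libraries, at 9 to 16.

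**Figure D4:**
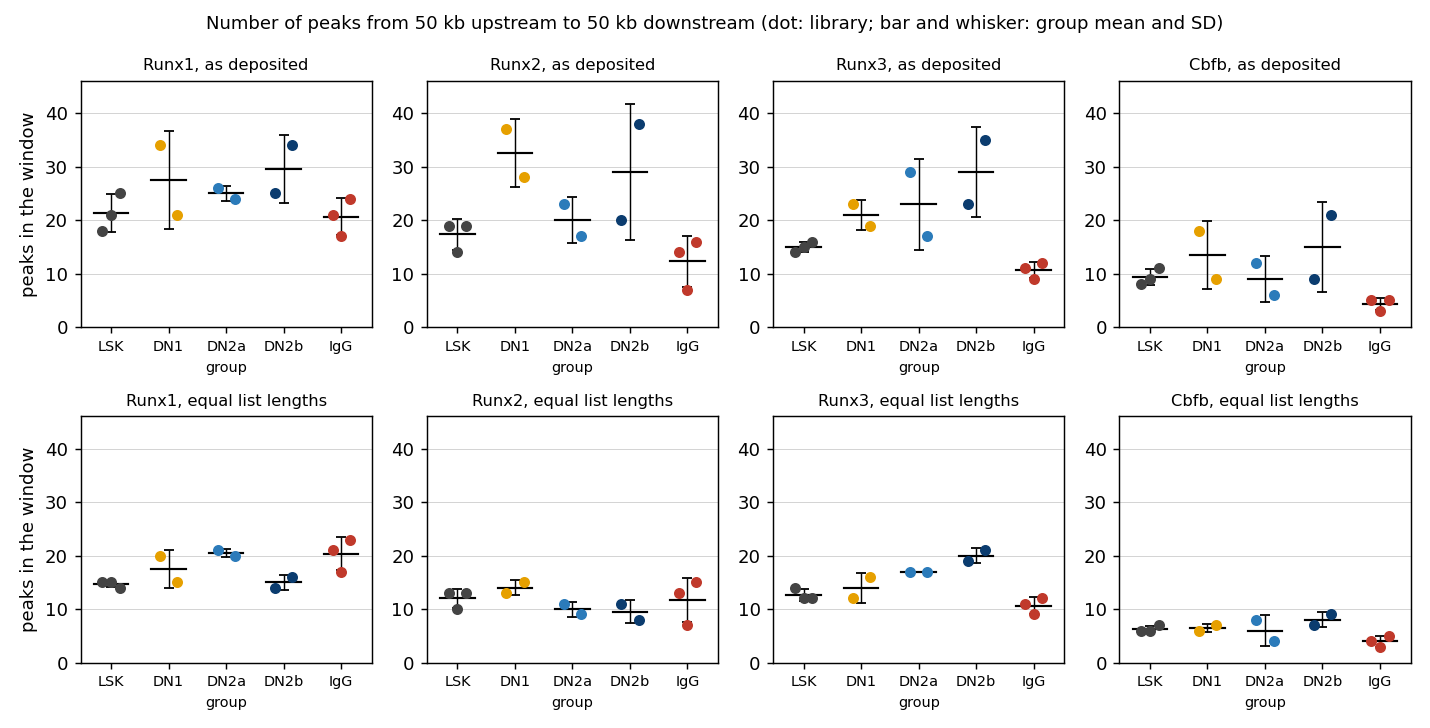
Peaks in each gene window (y axis, count) by group (x axis), as deposited (top) and after each list was cut to the same length (bottom). Dots are libraries, bars means and whiskers SD. At equal length Runx3 has 17 to 21 peaks in DN2 libraries and at most 16 in the others.

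Over all 4 windows, 9 members were higher in the 6 Delta1-cultured libraries than in the 6 others without overlap, of 192 (background 5.23%), and 2 were lower (0.272%). The 2 lower ones were at 105 kb and 201 kb in Runx2, the second named after its values were seen. It ranked at 81.7, 67.6 and 80.9 for LSK, 46.7, 48.3 and 35.0 for IgG, and 22.7 in 1 DN1 library and 0 in the other 5 Delta1-cultured libraries. In DN2 against LSK 20 of 155 were higher (10.2%) and 9 lower (5.76%), in IgG against LSK 10 of 103 were higher (7.27%) and 34 lower (30%), and in DN2 against DN1 7 of 165 were higher (3.61%) and 19 lower (12%). At equal list lengths 6 of 112 were higher and 3 lower in the Delta1-cultured libraries (backgrounds 4.14% and 1.74%), 12 of 90 higher and 10 lower in DN2 than LSK (13.2% and 15.9%), 10 of 82 higher and 14 lower in IgG than LSK (14.6% and 19%), and 11 of 84 higher and 11 lower in DN2 than DN1 (11.4% and 16.1%). In DN2 against DN1 the member shares as deposited, 4.24% higher and 11.5% lower, were near those of all DHSs. At equal list lengths the member counts, 11 higher and 11 lower of 84, were also near the shares of all DHSs (11.4% and 16.1%). Single libraries moved these counts too: in DN2 against DN1, 59 were lower without DN1 replicate 2 (background 35.3%), 34 lower without DN2b replicate 2 (23.3%), and 18 higher without DN1 replicate 1 (9.65%), 14 without DN2a replicate 2 (6.15%) and 12 without DN2a replicate 1 (5.13%). In DN2 against LSK 32 were higher without DN2a replicate 2 (14.6%), and in the Delta1-cultured libraries 14 were higher without DN1 replicate 2 (6.71%) or DN2a replicate 2 (6.54%). The comparisons share libraries.

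Among other genes of the pathway, 18 RUNX co-factors and modifiers had 15 to 17 promoters open in every library. Myb, a progenitor transcription factor that cooperates with RUNX, was higher in all Delta1-cultured libraries than in LSK and IgG, with means of 89.1 for DN1, 92.1 for DN2a, 91.5 for DN2b, 76.5 for LSK and 52.3 for IgG. It was the 1 of 18 without overlap in that direction (background 7.62% of promoters), and none was lower (0.323%). Of the same list, 2 of 18 were higher and 1 lower in DN2 than LSK (backgrounds 12% and 6.35%), 1 of 17 higher and 7 lower in IgG than LSK (3.25% and 49.7%), and 0 of 17 higher and 4 lower in DN2 than DN1 (2.69% and 9.7%). Of 20 genes known to be bound or controlled by RUNX, 6 to 8 had an open promoter in IgG, 7 to 9 in LSK, 11 to 12 in DN1, 9 to 10 in DN2a and 10 to 13 in DN2b. Of the 15 with a peak, 4 were higher in the Delta1-cultured libraries without overlap, Bcl11b, Tcf7, Rag1 and Gfi1, and Spi1, the myeloid regulator PU.1, was lower. Bcl11b, Tcf7 and Rag1 are also on the list of 10 T lineage markers, so these calls are not separate from that check. In this second list 4 of 13 were higher and 2 lower in DN2 than LSK, 1 of 12 higher and 4 lower in IgG than LSK, and 2 of 13 higher and 2 lower in DN2 than DN1. Bcl11b, the T commitment factor, averaged 18.2 for LSK, 65.7 for DN1, 95.8 for DN2a, 96.9 for DN2b and 0 for IgG. Spi1 averaged 93.1 for LSK, 83.4 for DN1, 80.0 for DN2a, 75.1 for DN2b and 94.2 for IgG.

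For each promoter, the genes whose promoter percentile followed it best over the 12 libraries are given by Pearson r, as a description only, since all values come from the same 12 libraries and share their list lengths. The Runx1 proximal promoter was closest to Chac1 (r = 0.973), Mt1 (0.962) and Mt2 (0.956), of which the last 2 encode metallothioneins. The Runx3 distal promoter was closest to Slc35b4 (0.997), Nemp2 (0.995) and Rasgrp2 (0.994), and the Cbfb promoter to Mmaa (0.932). The Runx1 distal promoter was closest to Afg3l2 (0.940), the Runx2 distal to Smagp (0.923), the Runx2 proximal to Chn2 (0.974) and the Runx3 proximal to Tnfsf14 (0.896). In CpG content the distal promoter windows were poor, with an observed over expected ratio of 0.137 for Runx1, 0.143 for Runx2 and 0.264 for Runx3, whereas the Runx1 and Runx3 proximal windows stood at 1.01 and Cbfb at 0.987.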

How the data were processed

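The authors trimmed reads, aligned them to mm10 with BWA 0.7.12 and ran the peak caller hotspot2 on each library (FDR 0.05). The deposited score of each peak is a whole number whose meaning is not given in the sources used here, so it was used only as a rank. Peaks of the 12 libraries (autosomes and X) were merged where they overlapped by 1 bp. Percentiles were compared across groups by an exact permutation test of the group share of variance over all 138600 divisions (smallest p 7.22e-06), with Benjamini-Hochberg adjustment over 114527 DHSs in at least 2 libraries, threshold 0.05. The permutations treated libraries as independent, although DN stages were collected from shared LSK isolates. Pairs of groups were compared by counts of DHSs that did not overlap, with no p. Genes came from GENCODE M21. The proximal promoter, set after reading the annotation, is the 5'-most coding start more than 10 kb from the distal one. Named sites were the promoters, the 4 with the largest range of group medians and the 2 highest in each window, and the +23 enhancer. Sites named for their range were chosen by the difference that the test measures, so their p adds no separate support. Groups came from the labels. Alternatives were tried for list length, score cut, merging, flanks, test and single libraries left out. Members and lists were chosen with earlier results of these data known. On simulated data the test recovered most planted changes at the spread of DHSs open in all 12 libraries, but none after adjustment at the wider spread of DHSs open in 8 or more, so a miss is weak evidence. Python 3.11.15, numpy 2.4.6, pandas 2.3.3, R 4.3.3 and limma 3.58.1 were used.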

Additional observations from a re-analysis of the deposited data

How the results depend on the processing

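Peak lists carry no depth, so absence from a short list is weaker evidence than from a long one. The count of members past the exact test depended most on the IgG libraries and ranged from 7 to 32 when single libraries were left out, an alternative that also leaves fewer divisions. Over all DHSs the share called without single libraries ranged from 4.06% to 20.3%. The count was 26 with only peaks at or above the median score (25.5% of all DHSs), 21 with DHSs of 1 library kept (8.39%) and 69 by limma, which called 50394 of all 114527 DHSs. The Runx3 window passed at equal list lengths (share of variance 0.88, adjusted p = 0.0328 by the exact test) and with only peaks at or above the median score (0.83, exact adjusted p = 0.0144). Without single libraries the share of variance ranged from 0.36 to 0.701 for Runx1, from 0.636 to 0.873 for Runx2, from 0.72 to 0.867 for Runx3 and from 0.484 to 0.788 for Cbfb.

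Shares in brackets are those of all DHSs. At equal list lengths 12 of 90 members were higher in DN2 than LSK (13.2%), 14 of 82 lower in IgG than LSK (19%), and of 84, 11 higher (11.4%) and 11 lower (16.1%) in DN2 than DN1. With only peaks at or above the median score 12 of 106 were higher (12.9%) and 5 lower (6.23%) in DN2 than LSK, 6 of 58 higher in IgG than LSK (8.07%) and 1 of 123 lower in Delta1-cultured libraries (0.274%). Other flanks left the shares of all DHSs as they were. Flanks of 25 kb gave 6 higher in IgG than LSK and 4 higher in DN2 than DN1. Flanks of 100 kb gave 17 higher in Delta1-cultured libraries, and 11 higher and 29 lower in DN2 than DN1. Without single libraries the counts ranged from 9 to 14 higher and stayed at 2 lower in Delta1-cultured libraries, from 20 to 32 higher and 9 to 12 lower in DN2 than LSK, from 10 to 15 higher and 35 to 39 lower in IgG than LSK, and from 7 to 18 higher and 19 to 59 lower in DN2 than DN1. The 59 came without DN1 replicate 2 (35.3%), and 34 without DN2b replicate 2 (23.3%). The 18 came without DN1 replicate 1 (9.65%), and the 32 without DN2a replicate 2 (14.6%). The cause of these shifts was not tested.

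With equal list lengths the group mean percentile was 88.6 for LSK, 87.7 for DN1, 75.4 for DN2a and 74.3 for DN2b at the Runx1 distal promoter, 5.46 for LSK, 37.8 for DN1, 56.2 for DN2a, 52.2 for DN2b and 81.7 for IgG at the Runx1 proximal promoter, 0 for DN1 at the Runx2 distal promoter, 2.1 for DN1, 7.97 for DN2a and 21.1 for DN2b at the Runx2 proximal promoter. It was 99.0 for LSK and 99.5 for DN1 at the Runx3 distal promoter. At the Runx3 proximal promoter it was 16.0 for LSK, 0 for DN1, 0 for DN2a and 34.1 for DN2b. At the Cbfb promoter it was 91.7 for LSK, 87.0 for DN1, 86.5 for DN2a, 87.5 for DN2b and 89.4 for IgG. With only peaks at or above the median score the group mean percentile was 86.8 for LSK, 90.0 for DN1, 74.2 for DN2a, 79.4 for DN2b and 83.7 for IgG at the Runx1 distal promoter, 0 for LSK, 51.2 for DN1, 55.5 for DN2a, 61.3 for DN2b and 66.3 for IgG at the Runx1 proximal promoter, 2.42 for DN1 at the Runx2 distal promoter, 21.5 for DN1, 7.84 for DN2a and 32.6 for DN2b at the Runx2 proximal promoter. The LSK mean at the Runx2 proximal promoter was 10.5. At the Runx3 distal promoter the mean was 98.9 for LSK, 99.6 for DN1 and 32.1 for IgG. At the Runx3 proximal promoter it was 6.91 for LSK, 2.42 for DN1, 0 for DN2a, 52.5 for DN2b and 0 for IgG. At the Cbfb promoter it was 90.4 for LSK, 90.1 for DN1, 86.5 for DN2a, 89.6 for DN2b and 80.6 for IgG. With a promoter window of 2.5 kb the group mean percentile was 66.5 for LSK and 77.5 for DN1 at the Runx1 proximal promoter, 64.5 for DN1 at the Runx2 distal promoter. It was 2.96 for IgG at the Runx2 proximal promoter, 62.0 for LSK, 74.1 for DN1, 91.1 for DN2a, 95.3 for DN2b and 36.0 for IgG at the Runx3 proximal promoter. No paired analysis was possible because the labels give no replicate numbers, and those used here follow deposition order.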
